A study of Homo sapiens with 7 samples.

Results

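The genes described here are 45 genes of the cell division cycle, measured in sorted human β-like cells with and without induced knockdown of METTL14. They were taken from a list of symbols covering G1 entry, S phase and mitosis, and every symbol matched exactly 1 of the 66025 Ensembl gene IDs of the count table. By their textbook roles, 5 act in G1, 16 in S phase and 24 in mitosis, and the S-phase and mitosis genes are reported apart. All 45 passed the filter on low counts and were among the 22926 genes tested.

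RNA-seq was performed on insulin-expressing cells that had been differentiated in vitro from H1, an established human embryonic stem cell line, and sorted at stage 6 by flow cytometry after labelling with the zinc dye DA-ZP1. All 7 libraries came from H1 cells transduced with a lentiviral, doxycycline (Dox)-inducible shRNA vector and selected with puromycin. The group iKD2 Dox+ (libraries a, b and c) carried an shRNA that targets METTL14, part of the methyltransferase complex that writes N6-methyladenosine on mRNA, and was grown with Dox. The controls were iKD2 Dox- (b and c), the same line grown without Dox, and iSCR Dox+ (a and b), a line with a scramble shRNA grown with Dox. Each hairpin was represented by 1 transduced line, so line and hairpin cannot be told apart, and the p-values measure only the spread between these libraries. Levels are given as CPM, counts per 1000000 counts of the library after scaling by TMM.

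Cells enter the cycle when D-type cyclins with CDK4 and CDK6 phosphorylate the retinoblastoma protein and free E2F factors, which switch on the genes for DNA replication. Genes for mitosis are switched on later, in G2, by complexes that bind CCAAT boxes and the cell cycle homology region (CHR) close to the start of the gene. Pancreatic endocrine cells leave the cycle as they differentiate, and in such cells transcripts of mitosis genes are therefore low and come mainly from the cells that still divide.

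Total counts ranged from 14875429 to 20639156 per library, and 19652 to 23747 genes had at least 1 count. The squared differences between libraries of 1 group were 97.8 to 163 times those of sampling noise, so that none was counted as a repeat of another. METTL14 had 18.7, 16.3 and 49.1 CPM in libraries a, b and c of iKD2 Dox+, 39.4 and 22.6 in b and c of iKD2 Dox-, and 36.1 and 32.2 in a and b of iSCR Dox+. The highest METTL14 level of all 7 libraries was thus that of the library labelled iKD2 Dox+ c, against its label. Values without it are given beside only some results. These are MKI67 against iKD2 Dox-, the medians of S-phase and mitosis genes, and the counts without overlap against iSCR Dox+. INS, the insulin gene, was between 11365 and 22298 CPM, and GCG, the glucagon gene of α cells, was between 5039 and 12846 CPM, so that transcripts of both cell types were present in every library. For the genes described here, iSCR Dox+ b stood apart. It was the lowest of the 7 libraries for 3 of 5 G1, 8 of 16 S-phase and 12 of 24 mitosis genes, and the other library of its group, iSCR Dox+ a, was the lowest for 0, 4 and 2 of them.

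The promoters of S-phase and mitosis genes are known for different sequence elements, which are shown here because both classes are reported apart. In the RefSeq table for GRCh38.p14 (windows from 250 bases before to 50 after the start), 34 of the 45 genes had an entry. The CHR was searched as TTTGAA or TTCGAA, the CCAAT box as CCAAT, and the E2F element as TTTCCCGC, TTTGGCGC, TTTCGCGC or TTTGCCGC, each on both strands. A CHR was found in 15 of 21 windows of mitosis genes (71.4%), in 2 of 16 of S-phase genes (12.5%) and in 5742 of 35116 windows of all genes (16.4%). An E2F element was found in 9 of 16 S-phase windows (56.2%), 3 of 21 mitosis windows (14.3%) and 3.31% of all windows. CCAAT was present in 85.7% of mitosis, 75.0% of S-phase and 34.6% of all windows, and 13 of 21 mitosis windows held both CHR and CCAAT (61.9%, against 6.38% of all). The windows of the 3 G1 genes with an entry held no CHR and no E2F element. Capitals in the stretches below mark the CHR of 5 mitosis genes and the E2F element of 3 S-phase genes, where the PCNA match is on the other strand. The CHR of MKI67 and the E2F element of MCM7 each share their last base with a CCAAT match, which is on the other strand in MKI67, and the CHR of ANLN directly follows a second one. These were chosen to show the position close to the start, where the first transcribed base is 1 and the base before it is -1.
MKI67, chr10:128126435-128126464, minus strand, CHR at -29: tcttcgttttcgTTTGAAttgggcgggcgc
PLK1, chr16:23678848-23678877, plus strand, CHR at -29: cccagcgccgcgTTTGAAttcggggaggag
CCNB2, chr15:59105105-59105134, plus strand, CHR at -29: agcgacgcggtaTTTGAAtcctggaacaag
ANLN, chr7:36389830-36389859, plus strand, CHR at -20: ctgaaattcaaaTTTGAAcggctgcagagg
PRC1, chr15:90994538-90994567, minus strand, CHR at -20: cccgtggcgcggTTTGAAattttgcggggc
E2F1, chr20:33686387-33686416, minus strand, E2F at -20: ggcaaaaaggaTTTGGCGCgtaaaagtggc
MCM7, chr7:100101388-100101417, minus strand, E2F at -9: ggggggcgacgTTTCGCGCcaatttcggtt
PCNA, chr20:5126663-5126692, minus strand, E2F at -59: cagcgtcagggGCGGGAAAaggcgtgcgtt
The windows of CCNB1, CCNA2 and AURKB, mitosis genes that are described further on, held CCAAT letters but none of the CHR. A match is a description of the letters and says nothing of whether a factor binds there.

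**Figure D1:**
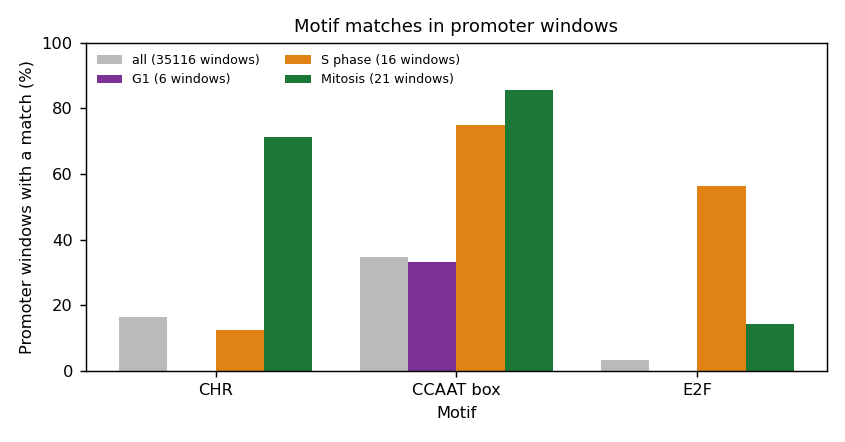
Share of promoter windows with at least 1 match (percent) for the CHR, the CCAAT box and the E2F element, in all RefSeq windows and in windows of the G1, S-phase and mitosis genes. The CHR bar is highest for mitosis genes (71.4%) and the E2F bar for S-phase genes (56.2%), while all windows are at 16.4% and 3.31%.

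Taken as sums, the mitosis genes separated iKD2 Dox+ from the uninduced line, and the S-phase genes did so by a smaller margin. The 24 mitosis genes added up to 1214, 1035 and 968 CPM in libraries a, b and c of iKD2 Dox+, to 661 and 719 CPM in b and c of iKD2 Dox-, and to 1026 and 520 CPM in a and b of iSCR Dox+. All libraries of iKD2 Dox+ were above those of iKD2 Dox-, but iSCR Dox+ a lay inside the iKD2 Dox+ range and iSCR Dox+ b below every other library. The 16 S-phase genes added up to 601, 549 and 577 CPM in iKD2 Dox+, 526 and 519 CPM in iKD2 Dox- and 505 and 324 CPM in iSCR Dox+. Here all 3 iKD2 Dox+ libraries were above the 4 controls, with a gap to iKD2 Dox- b that was small beside the distance between the iSCR Dox+ libraries. The 5 G1 genes added up to 620, 378 and 473 CPM in iKD2 Dox+, 437 and 411 CPM in iKD2 Dox- and 640 and 355 CPM in iSCR Dox+, and all groups overlapped. These are bulk samples, in which fewer cycling cells and less RNA per cycling cell cannot be told apart.

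**Figure D2:**
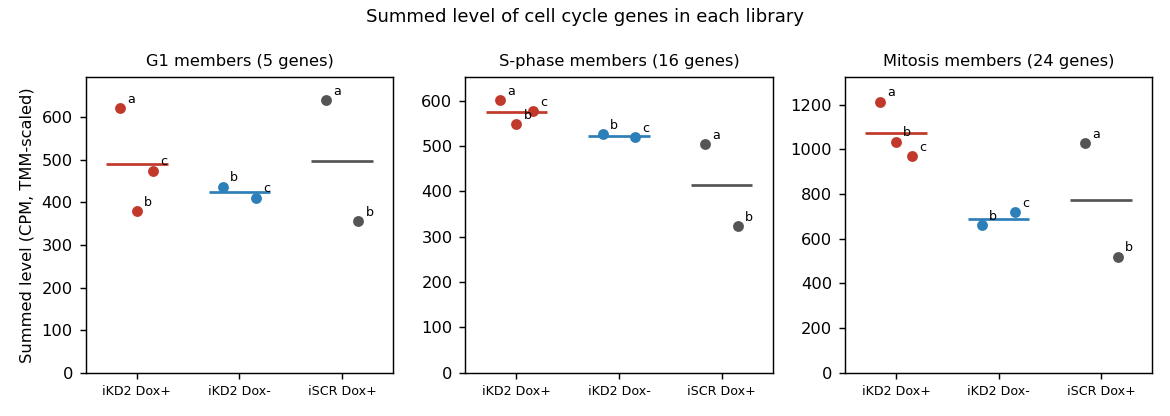
Summed level (CPM) of the G1, S-phase and mitosis genes in each library, by group, with letters for libraries and lines for group means. In the mitosis panel the iKD2 Dox+ libraries lie at 968 to 1214 CPM and the iKD2 Dox- libraries at 661 and 719 CPM, while the iSCR Dox+ libraries lie at 1026 and 520 CPM.

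Much of the mitosis sum came from 2 long transcripts, MKI67 and CENPF, the latter a kinetochore protein. Without both, the sums were 642, 652 and 541 CPM in iKD2 Dox+, 412 and 440 CPM in iKD2 Dox-, and 554 and 334 CPM in iSCR Dox+, so the same libraries overlapped as before. Per kilobase of the longest GENCODE 29 transcript, the mean level of CCND2 was the highest of the 45 in every group (35.9 CPM per kb in iKD2 Dox+, 32.5 in iKD2 Dox- and 39.7 in iSCR Dox+). On this scale the median gene of the mitosis list had a mean level of 8.71 CPM per kb in iKD2 Dox+, 5.44 in iKD2 Dox- and 5.81 in iSCR Dox+. The median S-phase gene had 9.98, 9.87 and 6.63 CPM per kb in the same order.

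The first comparison asked what differed when the shRNA was induced in the same line, iKD2 Dox+ against iKD2 Dox-. Dox and induction of the shRNA changed together here, and no scramble library was grown without Dox, so they cannot be told apart. MKI67, which encodes Ki-67, a proliferation antigen that coats mitotic chromosomes, had 384, 255 and 287 CPM in libraries a, b and c of iKD2 Dox+, 141 and 165 CPM in b and c of iKD2 Dox-, and 294 and 118 CPM in a and b of iSCR Dox+. It was higher in every iKD2 Dox+ than in every iKD2 Dox- library, and iSCR Dox+ a reached the iKD2 Dox+ range. The group means were 308 ± 67.0 CPM (SD, n = 3) and 153 ± 17.1 CPM (n = 2), a log2 fold change of 1.01 (SE 0.32, 95% interval 0.34 to 1.68). The unadjusted p was 0.00521 and the adjusted p was 1 in edgeR's quasi-likelihood test over all genes, so MKI67 did not pass. The iSCR Dox+ libraries share the estimate of spread. In edgeR fitted to only the groups compared, without them, the unadjusted p was 0.000623 and the adjusted p was 0.222. MKI67 thus did not pass there either. With iSCR Dox+ a or iSCR Dox+ b left out, which leaves 1 library in that group, the log2 fold change was 1.01 in both fits. With the library labelled iKD2 Dox+ c left out, the log2 fold change was 1.05.

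None of the 45 genes passed an adjusted p of 0.05 in edgeR in this comparison (0 called, against 9 of 22926 genes, 0.0393% of all tested). At an unadjusted p under 0.05, 1 of 45 was counted, MKI67, against 3.72% of all genes. DESeq2 and limma voom also called 0 of 45, and at an unadjusted p under 0.05 they counted 6 and 2, where 8.67% and 5.34% of all genes passed. The levels of 11 of 24 mitosis genes were higher in all iKD2 Dox+ than in all iKD2 Dox- libraries, with 0 lower, where 8.72% of all genes tested were higher and 11.6% lower without overlap. For the S-phase genes the counts were 1 of 16 higher and 1 lower. With each library left out in turn, which can only keep or raise such counts, the count for mitosis genes was between 12 and 14 of 24. That of all genes was then between 14.7 and 19.1%, and the count for S-phase genes went from 1 to 5 of 16. A log2 fold change above 0 was found for 19 of 24 mitosis and 11 of 16 S-phase genes, against 50.7% of all genes. The median log2 fold change was 0.52 for mitosis, 0.24 for S-phase and 0.14 for G1 genes, against 0.01 for all genes tested. With the library labelled iKD2 Dox+ c left out, the medians for mitosis and S-phase genes were 0.50 and 0.23.

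CCNB1, cyclin B1, the partner of CDK1 at entry into mitosis, had 47.0, 39.4 and 31.8 CPM in iKD2 Dox+, 12.1 and 19.2 CPM in iKD2 Dox- and 16.9 and 20.5 CPM in iSCR Dox+. The iKD2 Dox+ libraries were above all 4 controls. The log2 fold change against iKD2 Dox- was 1.33 (SE 0.66, unadjusted p = 0.0556, adjusted p = 1), and against iSCR Dox+ it was 1.08 (SE 0.65, adjusted p = 0.699) in edgeR. PLK1, the polo-like kinase of centrosome maturation and spindle assembly, had 55.3, 29.1 and 13.4 CPM in iKD2 Dox+, 13.1 and 11.1 CPM in iKD2 Dox- and 47.2 and 26.7 CPM in iSCR Dox+. Its levels were low in both iKD2 Dox- libraries, while iKD2 Dox+ and iSCR Dox+ overlapped. The log2 fold change against iKD2 Dox- was 1.43 (SE 0.71). CCNB2, cyclin B2, was between 14.4 and 23.2 CPM in iKD2 Dox+, at 4.09 and 5.88 CPM in iKD2 Dox-, and inside the iKD2 Dox+ range or just below it in iSCR Dox+ (11.98 and 17.6 CPM).

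CDK1, the kinase that drives mitosis, and CCNA2, cyclin A2, showed no such order. CDK1 had 0.957, 19.97 and 24.5 CPM in libraries a, b and c of iKD2 Dox+, 13.0 and 2.07 CPM in iKD2 Dox-, and 5.48 and 0.0669 CPM in iSCR Dox+, where the last value is 1 count. Libraries of 1 group lay far apart, and all groups overlapped. CCNA2 had 18.7, 23.4 and 11.8 CPM in iKD2 Dox+, 18.6 and 11.1 CPM in iKD2 Dox-, and 13.9 and 8.43 CPM in iSCR Dox+. Their log2 fold changes against iKD2 Dox- were 1.01 (SE 1.62) and 0.27 (SE 0.91).

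TOP2A, the topoisomerase that untangles sister chromatids, varied less than most and had 95.7, 82.2 and 92.7 CPM in iKD2 Dox+, 72.7 and 72.9 CPM in iKD2 Dox- and 78.9 and 30.6 CPM in iSCR Dox+. Its 3 iKD2 Dox+ libraries were above all controls by a small step, and iSCR Dox+ b was low. The log2 fold change was 0.31 (SE 0.40) against iKD2 Dox- and 0.72 (SE 0.40) against iSCR Dox+.

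**Figure D3:**
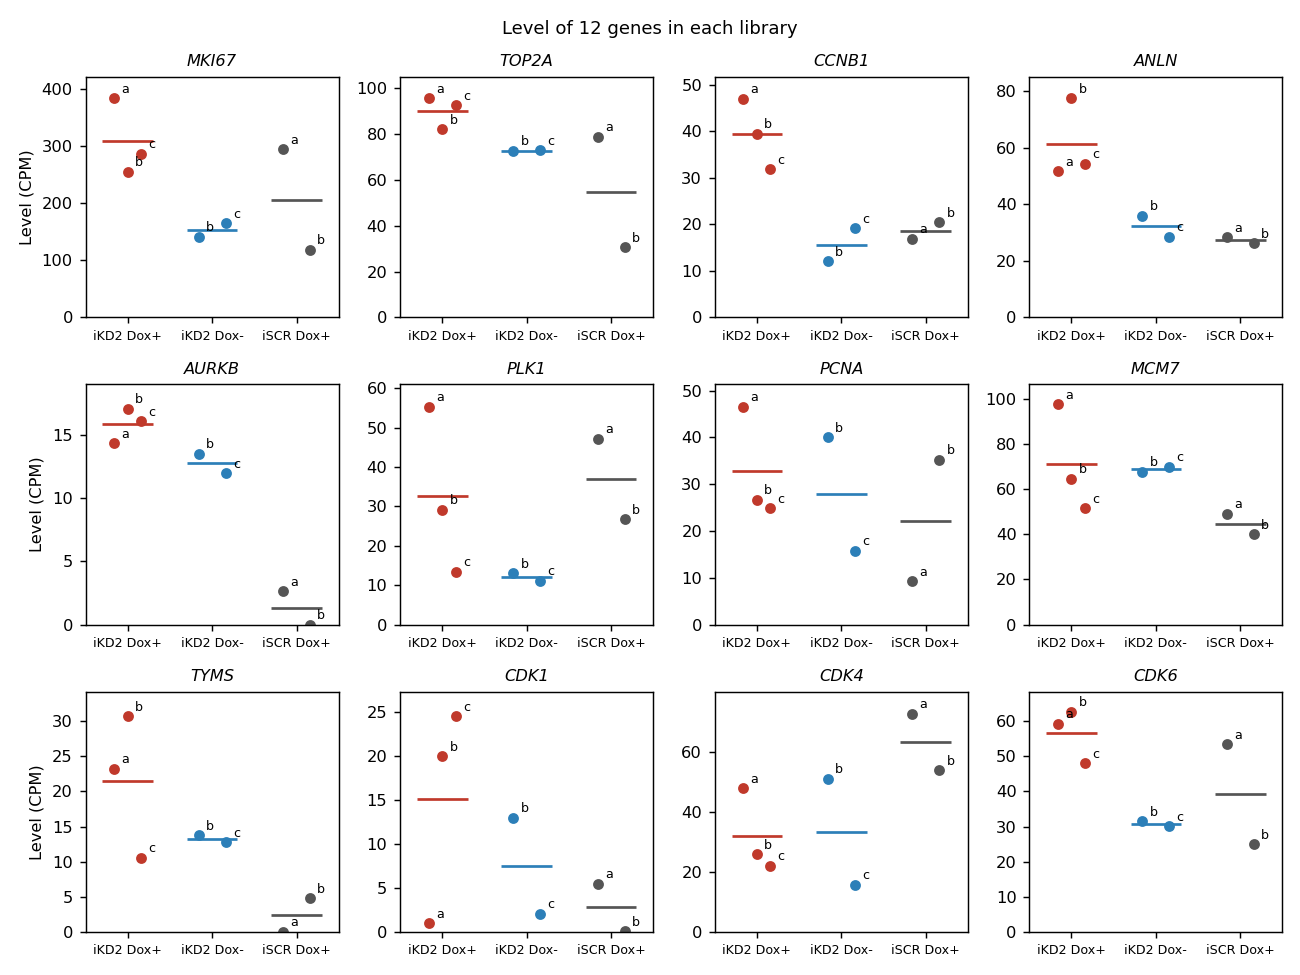
Level (CPM) of 12 genes in each library, by group, with letters for libraries and lines for group means. CCNB1, ANLN, AURKB and TOP2A are higher in the 3 iKD2 Dox+ libraries than in the 4 controls, and AURKB and TYMS are at 0 in 1 iSCR Dox+ library each.

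The second comparison set iKD2 Dox+ against iSCR Dox+, which tests the shRNA with Dox in both groups, and it shares the iKD2 Dox+ libraries with the first. Again 0 of 45 genes passed an adjusted p of 0.05 in edgeR, where 0.0262% of all genes did, and DESeq2 and limma voom called 0. At an unadjusted p under 0.05, edgeR counted 3 of 45 (ANLN, AURKB and TYMS, all higher), a share near the 6.72% of all genes, and DESeq2 and limma voom counted 6 and 4, against 15.1% and 6.87% of all genes. ANLN, the anillin scaffold of the cleavage furrow, had 51.8, 77.7 and 54.3 CPM in iKD2 Dox+, 36.0 and 28.5 CPM in iKD2 Dox- and 28.4 and 26.4 CPM in iSCR Dox+. The iKD2 Dox+ libraries were above all 4 controls, and the 4 controls lay close together. The log2 fold change against iSCR Dox+ was 1.16 (SE 0.49, 95% interval 0.13 to 2.19, unadjusted p = 0.0286, adjusted p = 0.699 in edgeR).

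AURKB, the Aurora kinase of the chromosomal passenger complex, had 14.4, 17.1 and 16.1 CPM in iKD2 Dox+, 13.5 and 11.98 CPM in iKD2 Dox-, and 2.64 and 0 CPM in iSCR Dox+, where the counts were 39 and 0. It was low in the scramble line alone, and the iKD2 Dox- libraries were close to the iKD2 Dox+ libraries. The log2 fold change against iSCR Dox+ was 3.58 (SE 1.59, unadjusted p = 0.0349, adjusted p = 0.699 in edgeR), and against iKD2 Dox- it was 0.31 (SE 1.36). The other control comparison, iKD2 Dox- against iSCR Dox+, gave 3.27 (SE 1.62) with the same iSCR Dox+ libraries. TYMS, thymidylate synthase, which makes dTMP for S phase, had 23.3, 30.8 and 10.6 CPM in iKD2 Dox+, 13.8 and 12.7 CPM in iKD2 Dox-, and 0 and 4.75 CPM in iSCR Dox+, where the counts were 0 and 71. It too was low in the scramble line, with a log2 fold change of 3.18 (SE 1.43, unadjusted p = 0.0381, adjusted p = 0.699 in edgeR) for iKD2 Dox+ and 2.48 (SE 1.45) for iKD2 Dox-. A count of 0 allows up to 3 counts, 0.203 CPM in iSCR Dox+ a and 0.201 CPM in iSCR Dox+ b, and this floor covers counting error only.

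Without overlap, 5 of 24 mitosis genes and 3 of 16 S-phase genes were above both iSCR Dox+ libraries in every iKD2 Dox+ library, compared with 11.3% of all genes tested. None of either list was lower, against 9.23%. Leaving out a library can only keep or raise such counts, for all genes as well. Without iKD2 Dox+ c, 8 of 24 mitosis and 4 of 16 S-phase genes did not overlap (16.4% of all genes). Without iSCR Dox+ a, 14 of 24 mitosis and 9 of 16 S-phase genes did not overlap (22.7% of all genes), and without iSCR Dox+ b they were 8 and 6 (26.0%). A log2 fold change above 0 was found for 18 of 24 mitosis and 14 of 16 S-phase genes, against 52.9% of all genes. The median log2 fold change against iSCR Dox+ was 0.47 for mitosis, 0.68 for S-phase and 0.13 for G1 genes, against 0.08 for all genes. For mitosis genes it was 1.01 without iSCR Dox+ a and 0.13 without iSCR Dox+ b, and for S-phase genes it was 1.54 and 0.57. With the library labelled iKD2 Dox+ c left out, the median was 0.65 for mitosis and 0.68 for S-phase genes. Placing genes with no count in iSCR Dox+ at their bound left the median of S-phase genes at 0.68.

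Of the S-phase genes, PCNA, the sliding clamp of DNA polymerase, had 46.5, 26.7 and 24.9 CPM in iKD2 Dox+, 40.0 and 15.8 CPM in iKD2 Dox- and 9.21 and 35.2 CPM in iSCR Dox+. RRM2, the regulated subunit of ribonucleotide reductase, had 33.6, 21.4 and 49.0 CPM in iKD2 Dox+, 42.9 and 15.7 CPM in iKD2 Dox- and 9.34 and 33.8 CPM in iSCR Dox+. For both genes the 2 libraries of each control group differed by more than the group means did. MCM2, a subunit of the replicative helicase, had 82.0, 51.5 and 66.1 CPM in iKD2 Dox+, 32.7 and 69.2 CPM in iKD2 Dox- and 22.2 and 60.8 CPM in iSCR Dox+. MCM7, of the same helicase, had 97.4, 64.5 and 51.6 CPM in iKD2 Dox+, 67.7 and 69.9 CPM in iKD2 Dox- and 49.0 and 40.0 CPM in iSCR Dox+. Only MCM7 of these 4 had iKD2 Dox+ libraries that did not overlap with iSCR Dox+, with a log2 fold change of 0.68 (SE 0.41), and against iKD2 Dox- it was 0.05 (SE 0.40). PCNA, RRM2 and MCM2 were low in iSCR Dox+ a and not in iSCR Dox+ b, the reverse of the mitosis genes MKI67 and TOP2A. The S-phase list as a whole did not follow them: iSCR Dox+ b was the lowest library for 8 of 16 genes and iSCR Dox+ a for 4.

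The remaining 11 S-phase genes had group means from 2.0 CPM (CCNE2) to 96.8 CPM (MCM3) in iKD2 Dox+, from 0.195 to 76.4 CPM in iKD2 Dox- and from 0 to 79.5 CPM in iSCR Dox+ (the same 2 genes). CCNE2, cyclin E2, had no count in either iSCR Dox+ library, so its mean level in iKD2 Dox+ was at least 9.91-fold higher than the floor of 3 counts per library there, although 1 of the 3 iKD2 Dox+ libraries was also at 0. E2F1, the factor that switches on replication genes, was the only S-phase gene above all 4 controls in each iKD2 Dox+ library, at 13.4 to 20.1 CPM against 8.33 and 1.20 CPM in iKD2 Dox- and 2.84 and 0.535 CPM in iSCR Dox+. Its log2 fold changes were 1.74 (SE 1.52) and 3.23 (SE 1.64), and it was named after its values had been seen. CDK2, the kinase of S-phase entry, was the 1 S-phase gene that was lower without overlap in iKD2 Dox+ than in iKD2 Dox-, with a log2 fold change of -0.51 (SE 0.79).

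The G1 genes had no common direction. CCND1, cyclin D1, had 179, 116 and 99.2 CPM in iKD2 Dox+, 119 and 137 CPM in iKD2 Dox- and 163 and 77.3 CPM in iSCR Dox+. CCND2, cyclin D2, had 306, 149 and 243 CPM in iKD2 Dox+, 209 and 212 CPM in iKD2 Dox- and 325 and 189 CPM in iSCR Dox+. Both cyclins overlapped between all groups, with log2 fold changes of 0.04 (SE 0.34) and 0.14 (SE 0.29) against iKD2 Dox-. The intervals of these differences were -0.66 to 0.75 and -0.46 to 0.75. CDK4, a kinase partner of both, had 47.9, 25.8 and 22.0 CPM in iKD2 Dox+, 50.9 and 15.7 CPM in iKD2 Dox- and 72.6 and 53.8 CPM in iSCR Dox+. CDK6, the other partner, had 59.3, 62.7 and 48.1 CPM in iKD2 Dox+, 31.5 and 30.1 CPM in iKD2 Dox- and 53.5 and 25.0 CPM in iSCR Dox+. CDK4 was below both iSCR Dox+ libraries in every iKD2 Dox+ library (log2 fold change -0.99, SE 0.55) and CDK6 higher without overlap than in iKD2 Dox- (0.88, SE 0.50), and neither passed (adjusted p = 0.699 and 1 in edgeR). CCND3, cyclin D3, overlapped in both comparisons.

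**Figure D4:**
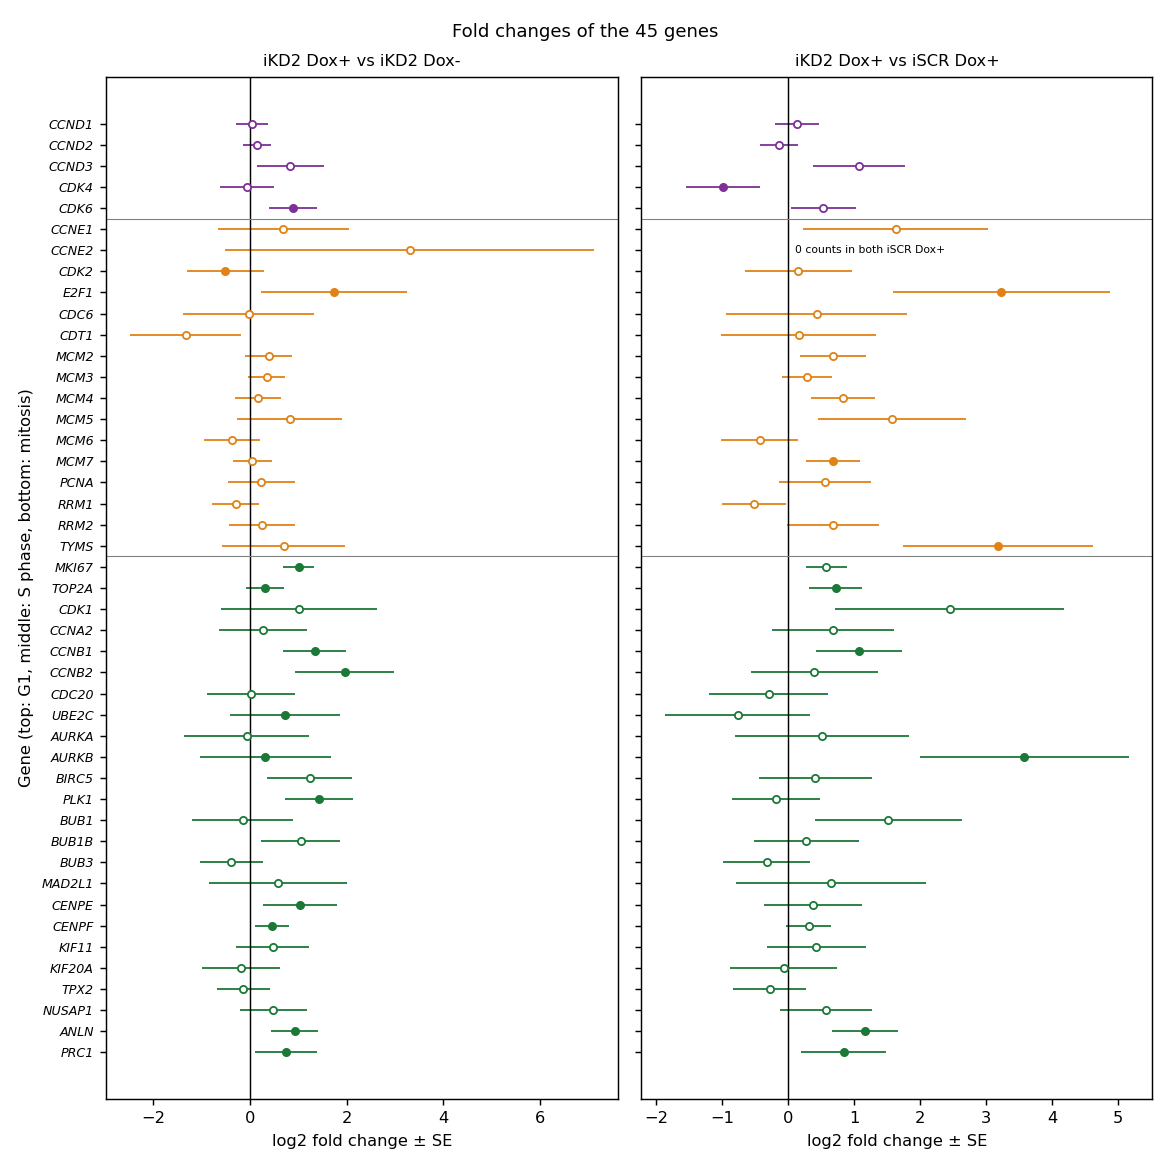
Log2 fold change (± SE) of the 45 genes in edgeR for iKD2 Dox+ against iKD2 Dox- and against iSCR Dox+, in violet for G1, orange for S phase and green for mitosis. Filled points mark genes whose groups do not overlap, and of the mitosis genes 11 of 24 are filled in the first panel and 5 of 24 in the second.

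The third comparison set the 2 control groups against each other and shares its libraries with the first and second. Of the 45 genes 0 passed an adjusted p of 0.05 in edgeR (0.0131% of all genes did), DESeq2 and limma voom called 0, and 1, PLK1, had an unadjusted p under 0.05 against 4.45% of all genes, where DESeq2 and limma voom counted 3 and 2 against 12.1% and 6.04%. PLK1 had the lower level in iKD2 Dox-, with means of 12.1 ± 1.41 CPM there and 36.9 ± 14.5 CPM in iSCR Dox+ (SD, n = 2 each) and a log2 fold change of -1.61 (SE 0.75, unadjusted p = 0.0448, adjusted p = 0.826 in edgeR). The controls did not overlap for 3 mitosis genes that were higher and 4 that were lower in iKD2 Dox-, of 24, against 19.9% and 13.2% of all genes. For S-phase genes these counts were 4 and 0 of 16. The median log2 fold change was 0.01 for mitosis genes and 0.65 for S-phase genes, or 0.63 without CCNE2, whose mean level of 0.195 CPM in iKD2 Dox- was below the floor of 3 counts in either iSCR Dox+ library. For mitosis genes the median was 0.67 without iSCR Dox+ a and -0.30 without iSCR Dox+ b, and it was also below 0 without iKD2 Dox- c (-0.27) and with DESeq2 size factors (-0.025), so that it had no stable direction. For S-phase genes it was 1.32 and 0.62 without iSCR Dox+ a and b.

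Read against all 4 controls together, 5 of 24 mitosis genes (TOP2A, CCNB1, AURKB, ANLN and PRC1, the last a crosslinker of spindle microtubules named after its values had been seen) and 1 of 16 S-phase genes (E2F1) were higher in each iKD2 Dox+ library. Of all genes tested 3.47% were, and 2.83% were lower, as 0 of the 45 were. The 16 mitosis genes that are not given library by library had mean levels from 9.90 CPM (AURKA) to 152 CPM (CENPF) in iKD2 Dox+. They ranged from 4.99 CPM (CCNB2) to 111 CPM (CENPF) in iKD2 Dox- and from 5.70 CPM (BUB1) to 123 CPM (CENPF) in iSCR Dox+. Of the spindle checkpoint genes, BUB1B had a log2 fold change of 1.05 (SE 0.82) against iKD2 Dox-, MAD2L1 0.57 (SE 1.43), BUB1 -0.15 (SE 1.04) and BUB3 -0.39 (SE 0.66), and all 4 overlapped.

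**Figure D5:**
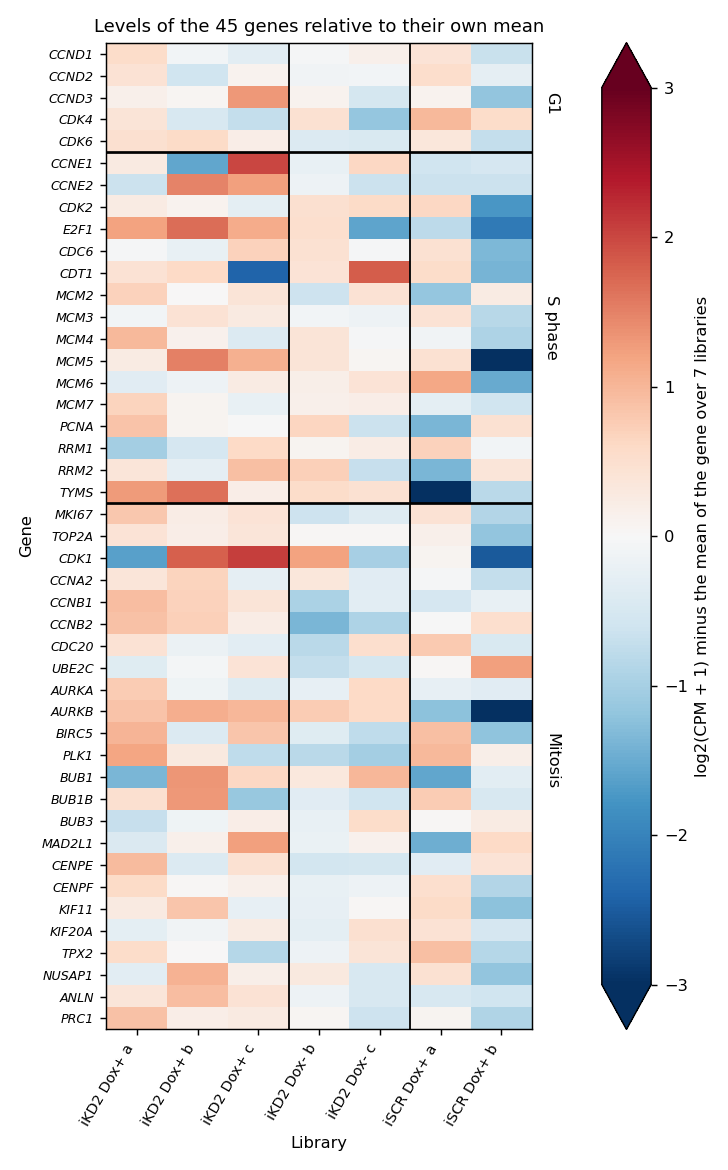
Level of each of the 45 genes in each library as log2(CPM + 1) minus the mean of that gene over the 7 libraries, with colour limits of -3 and 3. The column of iSCR Dox+ b is mostly blue, with the lowest value of the 7 libraries for 12 of 24 mitosis and 8 of 16 S-phase genes, and the mitosis rows are mostly red in iKD2 Dox+.

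Other genes of the cycle, from lists of related function, gave counts of the same kind, and none of them passed an adjusted p of 0.05 in edgeR in any comparison. Of 45 further mitosis genes, 3 had an unadjusted p under 0.05 against iKD2 Dox-, namely WEE1, SPC25 and KIFC1 (6.67%, against 3.72% of all genes), and 30 had a log2 fold change above 0 (66.7%, against 50.7% of all genes). WEE1, the kinase that restrains CDK1, had a log2 fold change of 0.99 (SE 0.35, unadjusted p = 0.00899, adjusted p = 1 in edgeR), with mean levels of 151 ± 27.7 CPM (SD, n = 3) and 75.7 ± 35.9 CPM (n = 2). SPC25, of the kinetochore, had no count in iKD2 Dox- and in 1 of 3 iKD2 Dox+ libraries. KIFC1 is a kinesin that focuses spindle poles, and its log2 fold change was 1.16 (SE 0.56). Against iSCR Dox+ the lowest unadjusted p-values were those of E2F8, KIF23 and TACC3, the latter 2 of the spindle and midzone, with log2 fold changes of 2.15 (SE 0.80) for KIF23 and 1.13 (SE 0.49) for TACC3. E2F8 had no count in iSCR Dox+, and its mean level in iKD2 Dox+ was at least 55.5-fold higher than the floor there. That mean came from libraries b and c (17.9 and 15.4 CPM), while iKD2 Dox+ a was near the floor with 4 counts (0.239 CPM). Between the controls they were those of TFDP1, a dimer partner of E2F factors (1.21, SE 0.47), of E2F8, and of CENPM, of the centromere, for which iSCR Dox+ again had no count.

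The median log2 fold change of the further mitosis genes was 0.32 against iKD2 Dox-, 0.95 against iSCR Dox+ and 0.37 between the controls. Without overlap, 6, 16 and 13 of these 45 were higher and 4, 3 and 6 lower in the 3 comparisons. Of all genes tested 8.72%, 11.3% and 19.9% were higher and 11.6%, 9.23% and 13.2% lower, which is the background for the counts of the next lists as well. Of 26 further replication genes 3, 3 and 4 were higher and 3, 3 and 2 lower, with medians of 0.02, 0.05 and -0.06. Of 16 genes of the retinoblastoma and E2F families 0, 1 and 2 were higher and 2, 1 and 3 lower, with medians of 0.22, -0.08 and -0.33. Of 8 inhibitors of cyclin-dependent kinases 6 were tested (CDKN2C was under the filter, and 1 was not analysed here), with medians of -0.42, -0.55 and 0.37, and 0, 0 and 1 were higher and 2, 0 and 1 lower without overlap. The further mitosis genes thus had positive medians in all 3 comparisons, the one between the controls included.

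Markers of other cells differed between the same groups, and their part in the results was not tested. The 10 β-cell markers added up to 13117 to 15432 CPM in iKD2 Dox+, 16530 to 19676 CPM in iKD2 Dox- and 23339 to 24171 CPM in iSCR Dox+. Most of this sum was INS alone, with means of 12190, 16011 and 21903 CPM in the same order. Of the 10, 3 (INS, PDX1 and PAX6) were below all controls in each iKD2 Dox+ library, and the others overlapped with controls. Among all genes tested, 2.83% were below and 3.47% above all controls in this way. The 5 duct markers added up to 742 to 841, 393 to 486 and 408 to 571 CPM in the same order. Only 1 of 5, KRT19, was above all controls, and it made up most of the sum (means of 600, 319 and 349 CPM). The 4 markers of pancreatic progenitors added up to 333 to 432, 221 to 250 and 299 to 329 CPM, with 1 of 4, SOX9, above all controls and PTF1A at 0 in every iKD2 Dox+ and iSCR Dox+ library. The 5 mesenchymal markers added up to 659 to 1063, 268 to 401 and 625 to 668 CPM, with 1 of 5, PDGFRB, above all controls. COL3A1 made up most of this sum (means of 658, 227 and 488 CPM). The 6 pluripotency markers added up to 21.5 to 115, 25.3 to 40.7 and 47.3 to 78.5 CPM, with 0 of 6 above all controls and NANOG and POU5F1 at 4.06 CPM or less in every library. The lists of α, acinar, endocrine progenitor and enterochromaffin markers held no gene above or below all controls in iKD2 Dox+. The group means of the duct, pancreatic progenitor, mesenchymal, pluripotency and acinar sums were lowest in iKD2 Dox-, as was that of the mitosis genes. Those of the α, enterochromaffin and endocrine progenitor sums were highest in iKD2 Dox-. For endocrine progenitor markers they were 252 CPM in iKD2 Dox-, 238 CPM in iKD2 Dox+ and 195 CPM in iSCR Dox+. Of these marker sums, only that of endocrine progenitors was lowest in iSCR Dox+ b (153 CPM), the lowest library for mitosis genes.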

How the data were processed

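Gene expression was measured by RNA-seq (stranded total-RNA kit, paired-end reads) in 7 libraries of sorted β-like cells. The authors trimmed adapters, quantified transcripts with Kallisto and added them up per gene with tximport, and deposited the estimated counts of each gene without any scaling to depth or length. fastp is named in the submitters' processing notes. Versions, genome build, annotation and strand setting are not given in the sources used here. Kallisto divides reads that fit several genes, so genes with close copies or overlapping neighbours are uncertain. Of the 45 genes, 17 had a count that was not whole in at least 1 library, CCND2 and PRC1 in 6 of 7.

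Counts were rounded, filtered with filterByExpr (22926 genes of 66025 IDs), given TMM factors, and tested in R 4.3.3 by the quasi-likelihood test of edgeR 4.0.16 (robust setting, one fit over all 3 groups, no covariate), with Benjamini-Hochberg adjustment over all genes tested and calls at 0.05. The SE was obtained as the log2 fold change over √F. Levels are CPM from TMM-scaled library sizes, with their SD. The floor for a gene without counts was set at 3 counts, and since PCR copies of a molecule are counted too, it covers counting error only. Total counts were 14875429 to 20639156 per library, and the square root of the edgeR dispersion had a median of 0.619 for S-phase, 0.637 for mitosis and 0.988 for all genes, which sets the precision. Groups came from the sample titles, and no sample or column was left out.

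Values in each library are given for MKI67, TOP2A, CDK1, CCNB1, CCNA2, PCNA, MCM2, MCM7, RRM2, TYMS, CCND1, CCND2, CDK4 and CDK6 and for genes with an unadjusted p under 0.05 in any comparison. The genes, lists and tests were chosen with earlier results of these data known. Alternatives were other scaling, other filters, DESeq2 1.42.0, limma 3.58.1 (voom), separate fits for each pair of groups, a block for the replicate letter and fits without each library. The counts of genes without overlap after leaving out a library were chosen after seeing the data. Of the list of kinase inhibitors, 1 gene was not analysed here.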

Additional observations from a re-analysis of the deposited data

How the results depend on the processing

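Of the tests run, edgeR under other scaling or filters, DESeq2, limma voom, the fit of only the groups compared and the replicate block called 0 of the 45 genes in each comparison, and the lowest adjusted p of DESeq2 was 0.0600 (AURKB against iSCR Dox+). Leaving out 1 library called 0 to 1 (iKD2 Dox+ against iKD2 Dox-), 0 to 3 (against iSCR Dox+) and 0 to 2 genes (between controls), all calls without an iSCR Dox+ library. Where this left 1 library in a group, that library was assumed to vary like the others.

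In the order of these comparisons, all genes called were 9, 6 and 3 in the report, 51, 66 and 32 without a filter beyond 1 count, 2, 3 and 1 at a mean CPM of at least 5, 219, 809 and 492 with DESeq2, and 2 to 115, 2 to 544 and 2 to 445 without 1 library. The fit of only the groups compared called 0 genes between the controls. Genes of the 45 at an unadjusted p under 0.05 (1, 3 and 1) were 3, 1 and 0 at a mean CPM of at least 5 (3.66, 7.09 and 4.90% of all genes), 6, 6 and 3 with DESeq2 (8.67, 15.1 and 12.1%), and 1 to 4, 0 to 12 and 0 to 7 without 1 library (2.0 to 4.97, 5.23 to 11.2 and 2.52 to 9.39%, and 7.54% where 12 were counted). They were 2 against iKD2 Dox- and 2 between controls both without a filter (2.83 and 3.64%) and with limma voom (5.34 and 6.04%), and 4 and 0 with only the groups compared (4.70 and 4.66%). Without 1 library, S-phase genes without overlap ranged from 1 to 5 and from 4 to 9 in the first and second comparisons, and mitosis genes from 6 to 14 in the second, where all genes ranged from 14.7 to 19.1% and from 16.4 to 26.0%. Leaving out a library can only keep or raise counts of this kind.

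Medians without 1 library ranged from 0.46 to 1.54 (S phase) and 0.13 to 1.01 (mitosis) against iSCR Dox+, and from 0.31 to 1.32 and -0.30 to 0.67 between controls, where the mitosis median was -0.025 with DESeq2 size factors and -0.025 with the DESeq2 test. The cause of these changes was not tested.

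The deviations of same-lettered libraries from their group means had correlations of -0.02 to 0.01 over genes. With 2 libraries in each control group, every such value has its opposite for another letter. These values therefore cannot settle whether same-lettered libraries shared a culture. The replicate block called 18, 15 and 8 genes, counted 6 of the 45 against iSCR Dox+ (5.44% of all genes) and 2 between controls (3.28%) at an unadjusted p under 0.05, and gave an S-phase median of 0.98 between controls. In the block the log2 fold change turned sign for CCND1 (-0.29), CCND2 (-0.14), MCM7 (-0.20) and AURKB (-0.093) against iKD2 Dox-, PLK1 (0.064) against iSCR Dox+, and CCND2 (0.0094), CDK6 (0.024), MCM2 (-0.016) and MKI67 (0.025) between controls.

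Single fold changes, none of them called in the reported fit, kept their direction in 396 of 408 such refits. Without 1 library, 322 of 357 did so. With limma voom CCND1 (-0.00109), CDK4 (0.037) and MCM7 (-0.00577) changed sign against iKD2 Dox-. Those that changed sign without 1 library ranged, against iKD2 Dox-, from -0.056 to 0.69 (CCNA2), -0.25 to 0.20 (CCND1), -0.11 to 0.38 (CCND2), -0.68 to 1.01 (CDK4), -0.065 to 1.02 (MCM2), -0.25 to 0.23 (MCM7), -0.30 to 1.04 (PCNA) and -0.31 to 1.13 (RRM2). Against iSCR Dox+ they ranged from -0.30 to 0.77 (CCND1), -0.48 to 0.30 (CCND2), -0.10 to 1.83 (PCNA) and -0.79 to 0.29 (PLK1). Between controls they ranged from -0.011 to 0.82 (CCNA2), -0.62 to 0.038 (CCNB1), -0.34 to 0.73 (CCND1), -0.63 to 0.16 (CCND2), -0.42 to 6.67 (CDK1), -0.80 to 0.30 (CDK6), -0.34 to 1.20 (MCM2), -0.94 to 0.38 (MKI67), -0.49 to 1.60 (PCNA), -0.46 to 1.65 (RRM2) and -0.11 to 1.25 (TOP2A).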
